A study of Limodorum abortivum with 6 samples.

Results

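A part of the ubiquitin-proteasome system of *Limodorum abortivum* roots was followed through 37 genes. They were selected by annotation, as the listed plant genes whose best protein match carries ubiquitin, F-box or proteasome in its name. Earlier results of these data were known when this choice was made. The selection was out of 1159 listed plant genes and 100005 assembled genes in the count files. The listed plant genes are only the readable part of the study's plant gene list, and further genes of the system may lie outside it. *L. abortivum* is a terrestrial orchid that feeds both by photosynthesis and through its root fungi. RNA was sequenced from untreated wild plants, with mycorrhizal roots (LM) giving libraries LM3, LM4 and LM6 and roots without mycorrhiza (LS) giving LS2, LS3 and LS6, 3 biological replicates each. Root pieces of different individuals were ground for RNA, roots were sorted by appearance and hand sections, and all of them carried other soil fungi and bacteria, so that LS roots are not sterile roots. The plants were adult individuals whose age is not stated further. LM and LS differ in everything that distinguishes the 2 kinds of root, not only in the presence of the symbiont.

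Ubiquitin is a small protein that marks other proteins for destruction or for a new role. It is activated by an E1 enzyme, passed to an E2 conjugating enzyme and placed on a substrate with the help of an E3 ligase, which gives the pathway its choice of target. RING-type E3 ligases can act as single proteins. F-box proteins are the exchangeable substrate receptors of SCF complexes, through which plants read auxin, jasmonate and gibberellin. Deubiquitinating enzymes take ubiquitin off again, and the 26S proteasome, a 20S barrel with a 19S cap, degrades the marked protein. In legumes, E3 ligases and F-box proteins of this system are known to take part in accommodating root symbionts.

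By role, 2 of the 37 genes encoded E2 enzymes, 12 RING-type E3 ligases, 1 an E3 ligase similar to the legume LIN protein, 15 F-box proteins, 2 deubiquitinating enzymes and 5 subunits of the proteasome. The transcripts of 22 of them were assigned to *Dendrobium*, 7 to *Phalaenopsis* and 8 to other plant taxa. No genome was used and the genes have no chromosomal position, and 9 assembled (Trinity) genes supplied 18 of the members as pairs, so that the 37 members came from 28 Trinity genes. Counts are given per 1000000 reads on plant transcripts (CPM), and levels of different genes are not compared because transcript lengths were not used here. Since each library is a whole root extract, fewer cells of a type and less RNA per cell cannot be told apart.

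The libraries held 4748078 to 6019195 gene counts each. Reads that overlapped more than 1 gene and were therefore not counted made up 10.8 to 11.7% of gene and ambiguous reads in LM (11.4% ± 0.496, SD, n = 3) and 19.5 to 29.3% in LS (25.7% ± 5.39, n = 3), without overlap (two-sided exact permutation test, p = 0.1, the smallest possible with 3 against 3). LS2 stood apart from the other libraries in a leaf marker, the chlorophyll a-b binding protein gene MSTRG.13, with 69 counts against 0 or 1 in each of the other 5. The transcript of MSTRG.13 was assigned to Phaseoleae and not to an orchid genus. No marker that defines a root was among the listed genes, and of 3 genes of the CASP-like family, which is not limited to roots, MSTRG.2375 and MSTRG.2725 had 146 to 338 counts in each library, while MSTRG.2374 had 180 counts in LM4 and 1 to 4 in the other 5. The part of the uncounted reads, of LS2 and of LM4 in the results was not tested beyond the values given with them.

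None of the tested ubiquitin-system genes differed between LM and LS roots after adjustment over all tested listed plant genes. Enough reads for a test were available for 26 of the 37 genes, and the smallest adjusted p was 0.263 (edgeR quasi-likelihood test, Benjamini-Hochberg over 719 listed genes). The fit called 0% of the 719 listed genes at 0.05, so the count of 0 members is the same as the background. At an unadjusted p below 0.05 there was 1 member, the RING E3 gene MSTRG.633, against 15.9% of the listed genes. LM and LS did not overlap for 4 of the 26, namely the RING E3 gene MSTRG.633 and the PP2-B-like F-box gene MSTRG.85, higher in LM, and the AFR-like F-box gene MSTRG.524 and the proteasome cap gene MSTRG.1914, lower in LM. Among the 719 listed genes 24.1% had groups without overlap (15.4% higher and 8.62% lower in LM), so the members' share was no larger than the background. The count became 8 without LM3 and 9 without LM6, LS2 or LS3, where 33%, 39.6%, 36% and 41.7% of the listed genes had no overlap, and it was 4 without LM4 (29.5% of the listed genes) and 5 without LS6 (30%). DESeq2 called 74 of 1002 listed genes (7.39%) but also 0 members, with 5 of 36 members at an unadjusted p below 0.05 against 16.2% of the listed genes. In edgeR that count was 2 with the sum of gene counts as library size (14.4% of the listed genes) and 3 with no filter on low counts (13.9%). An edgeR fit of every gene in the files called 4 of 722 listed genes (0.554%) and 0 members.

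The differences of the ubiquitin-system genes were also small in size. Their median log2 fold change (LM over LS) was 0.05 and that of all listed genes 0.06, whereas the median size of the change without its sign was 0.23 for the members and 0.48 for the listed genes. A log2 fold change beyond 1 in either direction was found for 3 of the 26, the RING E3 gene MSTRG.633, the EID1-like F-box gene MSTRG.1732 and the proteasome gene MSTRG.1105, against 24.2% of the listed genes. For 11 of the 26 genes (42.3%) the 95% interval of the fold change lay wholly within 2-fold, against 20.6% of the listed genes. The tested members were read more deeply, with a median of 218.6 counts per library against 88.0 for the listed genes. Of the 26 genes 16 were above 0 and 10 below, and this split turned to 11 and 15 with TMM factors or DESeq2 size factors and to 9 and 17 with the sum of gene counts as library size. That last scaling moved the median of all listed genes by -0.22, so the members moved with the listed genes as a whole.

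**Figure D1:**
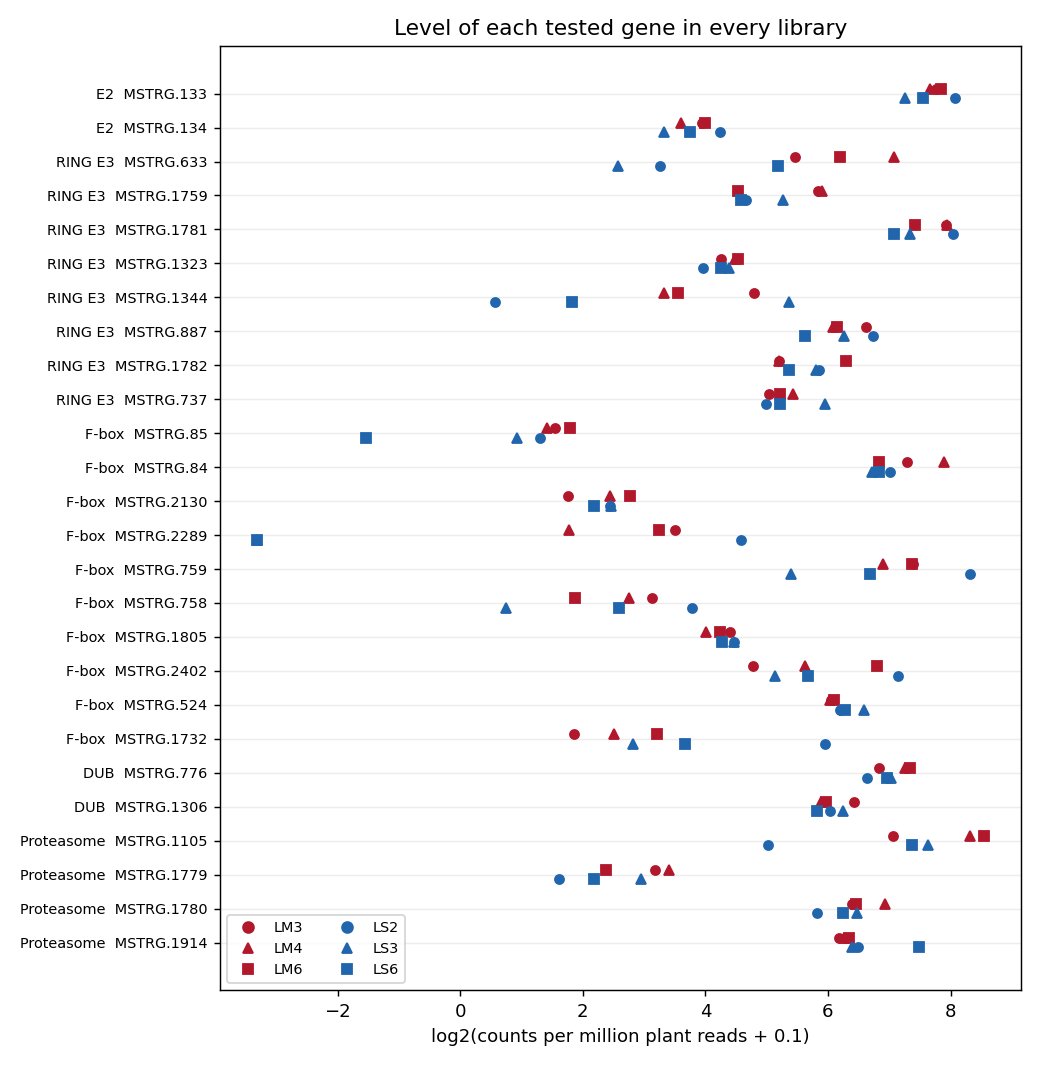
Level of each of the 26 tested genes in every library, on the axis as log2 of CPM plus 0.1, with LM libraries in red, LS libraries in blue and the symbol marking the library. The groups overlap in all rows but those of MSTRG.633, MSTRG.85, MSTRG.524 and MSTRG.1914, and the LS symbols of several F-box genes lie far apart.

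Both E2 genes were read in every library, at overlapping levels in LM and LS. MSTRG.133, which is most similar to the E2-23 kDa and E2 5 conjugating enzymes, stood at 218, 203 and 230 CPM in LM3, LM4 and LM6 and at 269, 153 and 187 CPM in LS2, LS3 and LS6. The LM values fell inside the LS range, and the log2 fold change was 0.10 (SE 0.27, 95% interval -0.56 to 0.75, edgeR adjusted p = 0.884). MSTRG.134, a second transcript group of the same Trinity gene, gave 15.2, 12.0 and 15.8 CPM in LM and 18.8, 9.90 and 13.3 CPM in LS, a log2 fold change of 0.04 (SE 0.34, edgeR adjusted p = 0.969). The sign of both turned negative with TMM factors (-0.014 and -0.076). In both genes LS2 was the highest library and LS3 the lowest.

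Among the RING-type E3 ligases, the clearest separation was that of MSTRG.633. Its product matches XERICO and RHA2B, small RING proteins linked in *Arabidopsis* to abscisic acid. Its level was 44.1, 134 and 72.9 CPM in LM3, LM4 and LM6 against 9.50, 5.85 and 36.5 CPM in LS2, LS3 and LS6. Every LM library lay above every LS library, with means of 83.8 ± 46.1 and 17.3 ± 16.7 CPM (SD, n = 3). The log2 fold change was 2.28 (SE 0.81, 95% interval 0.31 to 4.25), with an unadjusted p of 0.0300 and an adjusted p of 0.263 in edgeR. Over all alternatives the log2 fold change lay between 1.76 and 3.44 and the adjusted p between 0.120 and 0.590. The unadjusted p of this gene was above 0.05 on leaving out LM4 (0.0937), LM6 (0.0518), LS2 (0.0855) or LS3 (0.0615), and in the fit of all genes (0.0667).

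The other 7 tested RING genes had log2 fold changes from -0.21 to 0.67, and LM and LS overlapped in each. They included MSTRG.1781 and MSTRG.1782, both similar to WAV3 and WAVH1, which shape root gravitropism in *Arabidopsis*, with log2 fold changes of 0.24 and -0.02. MSTRG.737, similar to RMA1, an E3 ligase of the endoplasmic reticulum membrane, gave -0.21 (SE 0.31), and MSTRG.1759, similar to RHY1A, gave 0.67 (SE 0.43). MSTRG.887 and MSTRG.1323, both matching RING1, which is linked to cell death in *Arabidopsis*, gave 0.03 and 0.21. MSTRG.1344, similar to RHA1A and RHA1B, was uneven, with 118, 39 and 52 counts in LM but 7, 183 and 14 counts in LS. Its LS values spread from below the lowest to above the highest LM library, so that its log2 fold change of 0.10 had an SE of 1.22 and became 2.76 without LS3 (this gene was singled out for its spread).

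The LIN-like gene MSTRG.2143 was close to the limit of detection. LIN, also known as CERBERUS, is an E3 ligase needed for infection by rhizobia in *Lotus* and *Medicago*. Its orchid match had 4, 5 and 1 counts in LM and 2, 11 and 6 counts in LS, too few for the test. The ratio of LM to LS per plant read was 0.564, with an exact 95% counting interval of 0.234 to 1.27, so that no difference was detectable at this depth.

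The tested F-box genes fell into steady and uneven ones in LS roots. Of the 15 genes 10 were tested, with a median log2 fold change of -0.10 a range of -2.15 to 0.95 and a median size without sign of 0.23. Within groups, the median SD of their log2 level was 0.52 in LM and 1.25 in LS, against 0.44 and 0.50 for all listed genes. In LS, 4 of the 10 (MSTRG.84, MSTRG.524, MSTRG.1805 and MSTRG.2130) had an SD of 0.11 to 0.20 and the other 6 one of 1.04 to 4.43. This difference in spread was not tested. Over all tested members the SD was larger in LS for 19 of 26 genes (73.1%), against 54.4% of the listed genes.

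MSTRG.524 matches AFR, a kelch-repeat F-box protein of far-red light signalling in *Arabidopsis*. It had a tight level of 66.1, 65.7 and 68.5 CPM in LM and 73.4, 95.6 and 77.1 CPM in LS. All LM libraries lay below all LS libraries, but by little, with a log2 fold change of -0.30 (SE 0.19, 95% interval -0.76 to 0.17, edgeR adjusted p = 0.493). MSTRG.85 matches PP2-B2, an F-box protein with a phloem lectin-like domain, and was low, with 12, 10 and 15 counts in LM and 12, 8 and 1 counts in LS. Scaled to plant reads these were 2.81, 2.56 and 3.35 CPM against 2.37, 1.80 and 0.246 CPM, a log2 fold change of 0.95 (SE 0.71, edgeR adjusted p = 0.545), and the gap between the groups was narrow except for LS6. MSTRG.84, the partner with more counts from the same Trinity gene, gave 0.54 (SE 0.31) with overlapping groups.

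MSTRG.658 matches GID2 and SNE, the F-box proteins through which rice and *Arabidopsis* degrade DELLA repressors when gibberellin is present. Its counts were 16, 3 and 7 in LM against 7, 1 and 1 in LS, under the minimum of the test. The LM to LS ratio was 3.09, with a counting interval of 1.40 to 7.50 that covers counting error only, and the groups overlapped. MSTRG.1463, annotated as a probable carboxylesterase 18 and, as its other match, as GID1C, a gibberellin receptor that acts with GID2, was at 151, 631 and 131 CPM in LM and 303, 430 and 64.8 CPM in LS, a log2 fold change of 0.19 (SE 0.88) that became -0.92 without LM4. Both MSTRG.436 and MSTRG.437, similar to gibberellin 2-beta-dioxygenases that inactivate the hormone, were too low to test.

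**Figure D2:**
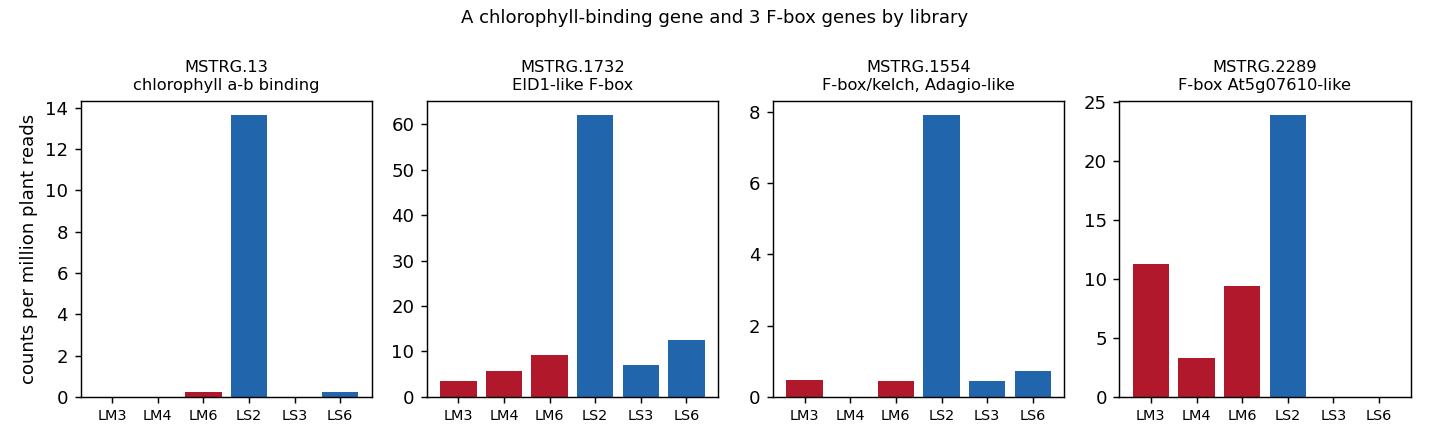
Level (CPM) of the chlorophyll-binding gene MSTRG.13 and of the F-box genes MSTRG.1732, MSTRG.1554 and MSTRG.2289, with 1 bar per library, LM in red and LS in blue, each panel on its own axis. LS2 is the highest library in each panel.

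A few F-box genes stood out by their level in LS2, a choice made with their values in view. MSTRG.1732, similar to the EID1-like F-box proteins named after a repressor of phytochrome signalling, was at 62.1 CPM in LS2 and at 6.97 and 12.6 CPM in LS3 and LS6, against 3.52, 5.62 and 9.14 CPM in LM. Its log2 fold change of -2.15 (SE 0.91, edgeR unadjusted p = 0.0561) became -0.68 (SE 0.56) without LS2. MSTRG.1554, a kelch-repeat F-box gene that also matches Adagio protein 2, a blue light receptor of the clock, had 40 counts in LS2 and 0 to 3 in the other 5 libraries. MSTRG.2289, similar to At5g07610, had 48, 13 and 42 counts in LM and 121 in LS2, but 0 in LS3 and LS6, where a count of 0 allows up to 3 per library. The transcript of MSTRG.1732 was assigned to Panicoideae, and those of MSTRG.1554 and MSTRG.2289 to *Dendrobium*. The leaf marker MSTRG.13 was also high in LS2, and its part in the levels of these F-box genes was not tested. Over all 26 tested genes LS2 was the highest library in 9 and the lowest in 7, whereas it was the highest for 19.9% and the lowest for 28.8% of the listed genes. Without LS2 there was again 1 member at an unadjusted p below 0.05 (MSTRG.2289 in place of MSTRG.633, against 15.4% of the listed genes).

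The remaining F-box genes overlapped between LM and LS. MSTRG.759, similar to At5g50450, was at 318 CPM in LS2 and 42.1 CPM in LS3, with LM between 119 and 168 CPM, and its log2 fold change of -0.04 became 1.05 without LS2. MSTRG.758 from the same Trinity gene gave -0.17, and 0.75 without LS2. MSTRG.2402, similar to At2g36090, gave -0.27 (SE 0.71), which became 0.54 without LS2 and -0.98 without LM6. The tested SKIP8-like genes, named after partners of the SCF subunit SKP1, had log2 fold changes of 0.01 for MSTRG.2130 and -0.18 (SE 0.24) for MSTRG.1805. MSTRG.925 and MSTRG.1926, F-box genes with leucine-rich repeats, had at most 19 counts in any library and were not tested.

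The levels of both deubiquitinating enzymes overlapped between LM and LS. MSTRG.776, a ubiquitin carboxyl-terminal hydrolase, was at 114, 152 and 161 CPM in LM and 98.9, 130 and 124 CPM in LS, a log2 fold change of 0.27 (SE 0.23, 95% interval -0.29 to 0.83, edgeR adjusted p = 0.591). MSTRG.1306, similar to UBP18 and UBP19, ubiquitin-specific proteases, was at 86.0, 58.8 and 62.5 CPM in LM and 65.7, 75.8 and 56.7 CPM in LS. Its log2 fold change of 0.06 (SE 0.24, 95% interval -0.52 to 0.65, edgeR adjusted p = 0.925) lay within 2-fold, and turned to -0.018 with TMM factors.

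The tested proteasome genes did not share a direction, 3 lying above 0 and 1 below, and none passed the test. MSTRG.1105 matches beta type-4, a structural subunit of the 20S barrel, and stood at 134, 318 and 374 CPM in LM against 32.5, 198 and 165 CPM in LS. LM4 and LM6 lay above all LS libraries and LM3 among them, and the log2 fold change of 1.06 (SE 0.72, 95% interval -0.70 to 2.83, edgeR adjusted p = 0.510) became 0.60 without LS2. MSTRG.1780 matches beta type-6, the barrel subunit with caspase-like activity, and gave 83.5, 122 and 88.1 CPM in LM and 56.2, 89.1 and 75.6 CPM in LS. Its log2 fold change was 0.41 (SE 0.27, edgeR adjusted p = 0.498), and that of MSTRG.1779, the partner with fewer counts from its Trinity gene, with 8.91, 10.5 and 5.13 CPM in LM and 2.97, 7.65 and 4.44 CPM in LS, was 0.70 (SE 0.50, edgeR adjusted p = 0.522).

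The cap subunit was the one below 0. MSTRG.1914 matches the non-ATPase regulatory subunit 8, known in *Arabidopsis* as RPN12, a part of the 19S lid. It was at 72.7, 76.7 and 80.7 CPM in LM and at 89.5, 84.4 and 179 CPM in LS. All LM libraries lay below all LS libraries, with a log2 fold change of -0.62 (SE 0.34, 95% interval -1.45 to 0.21, edgeR adjusted p = 0.427) that shrank to -0.18 without LS6. MSTRG.1915, its partner with fewer counts, had 9, 7 and 6 counts in LM and 5, 11 and 2 counts in LS and was not tested.

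**Figure D3:**
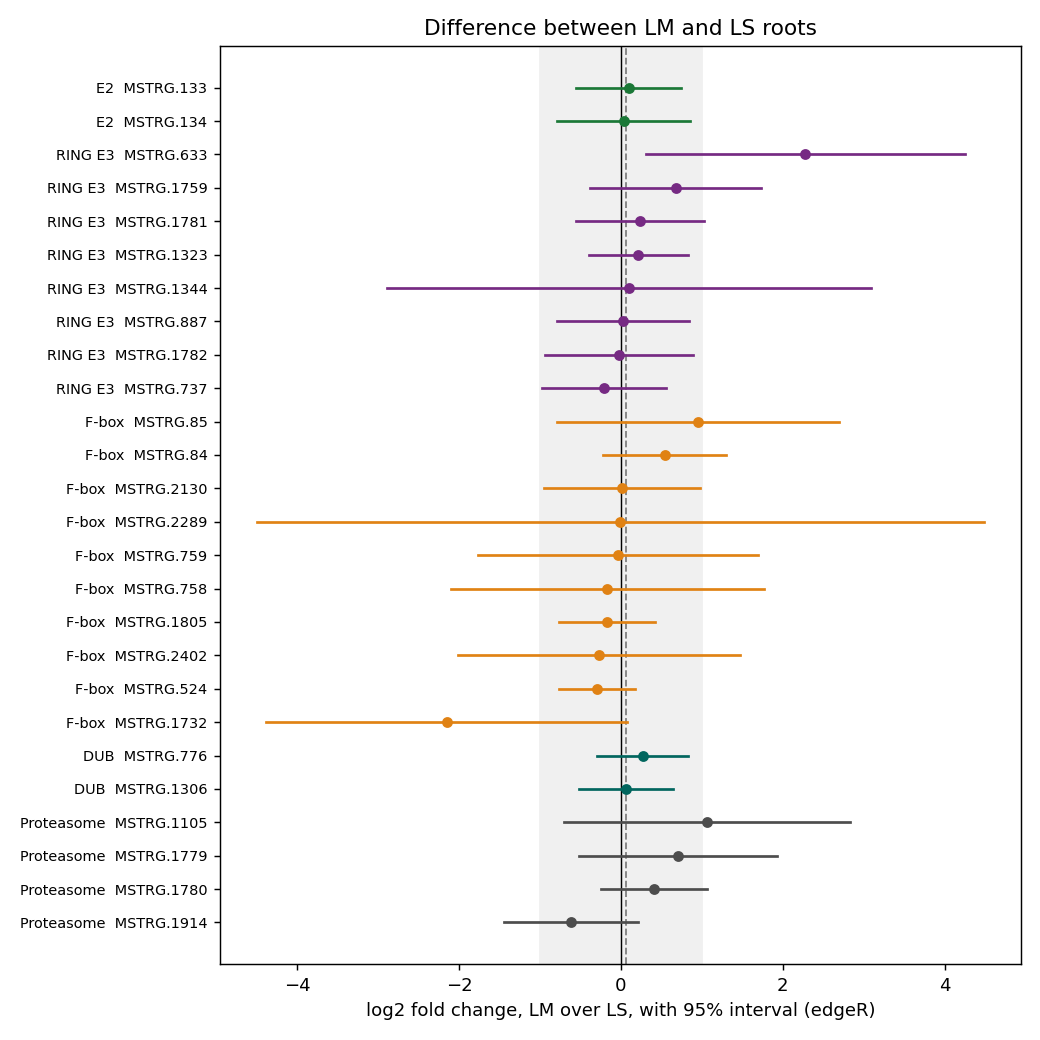
Log2 fold change of LM over LS roots for each of the 26 tested genes, with its 95% interval from edgeR as a horizontal line, coloured by role. The grey band marks a change within 2-fold, the dashed line is the median of all listed genes (0.06), and only the interval of MSTRG.633 leaves out 0.

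The 11 untested genes had at most 40 counts in any library. Apart from MSTRG.2143, MSTRG.658, MSTRG.1554, MSTRG.925, MSTRG.1926 and MSTRG.1915, they were the RING genes MSTRG.888, MSTRG.1082, MSTRG.1324 and MSTRG.1758 and the SKIP8-like F-box gene MSTRG.2131. LM and LS did not overlap for MSTRG.2131, with 5, 5 and 14 counts in LM and 2, 1 and 1 counts in LS. Its ratio was 6.42 with a counting interval of 2.21 to 25.5, and its adjusted p in DESeq2 was 0.146. LM and LS did not overlap for MSTRG.1324 either, with 4, 3 and 5 counts in LM and 6, 5 and 6 counts in LS, a ratio of 0.756 (0.329 to 1.68). These intervals cover counting error only. The share without overlap among the untested listed genes was not computed, so no result about the members is drawn from these genes. In MSTRG.1324 the nearest LM and LS libraries both hold 5 counts, so a single read shifts their order.

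For members that came in pairs from 1 Trinity gene, the share of counts taken by each partner was compared, which does not depend on library size. Of 9 pairs, 8 had at least 20 counts in every library. The E2 gene MSTRG.133 took 93.5 to 94.4% of its pair in LM and 93.3 to 93.9% in LS. In 7 of the 8 pairs LM and LS overlapped, with mean shares that differed by at most 1.54 percentage points, the value of MSTRG.1779 in the beta type-6 pair. The exception was the RING1-like pair, where MSTRG.1323 took 95.8% ± 0.771 in LM and 93.5% ± 1.20 in LS (SD, n = 3, two-sided exact permutation test, p = 0.1, adjusted p = 0.8 over 8 pairs). Single-library shares of that pair had 95% Wilson intervals of up to 5.77 percentage points to either side, wider than the difference.

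The SKIP8-like pair fell just below the minimum, with 19 counts in its lowest library. MSTRG.2130 took 73.7, 80.8 and 68.2% of the pair in LM and 93.1, 96.0 and 94.7% in LS, without overlap (74.2% ± 6.31 and 94.6% ± 1.45, n = 3, two-sided exact permutation test, p = 0.1, adjusted p = 0.45 over 9 pairs). The counted share of MSTRG.2131 was thus larger in LM, but it rests on few reads, with 4 counts of MSTRG.2131 over all LS libraries. Single-library shares had 95% Wilson intervals of up to 18.5 percentage points to either side. Those of MSTRG.2130 in LM4 (62.1 to 91.5%) and LS6 (75.4 to 99.1%) overlapped. The sum of both genes gave a log2 fold change of 0.38 (SE 0.41). With counts summed over the listed genes of each Trinity gene, 23 Trinity genes that hold members could be tested. Of these, 1 had an unadjusted p below 0.05 in edgeR, against 17.1% of the listed Trinity genes. The sum for MSTRG.1926 also holds MSTRG.1927, a listed gene that is not a member. That sum was at 30.9 CPM in LM3, where MSTRG.1926 was at 0.703 CPM.

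**Figure D4:**
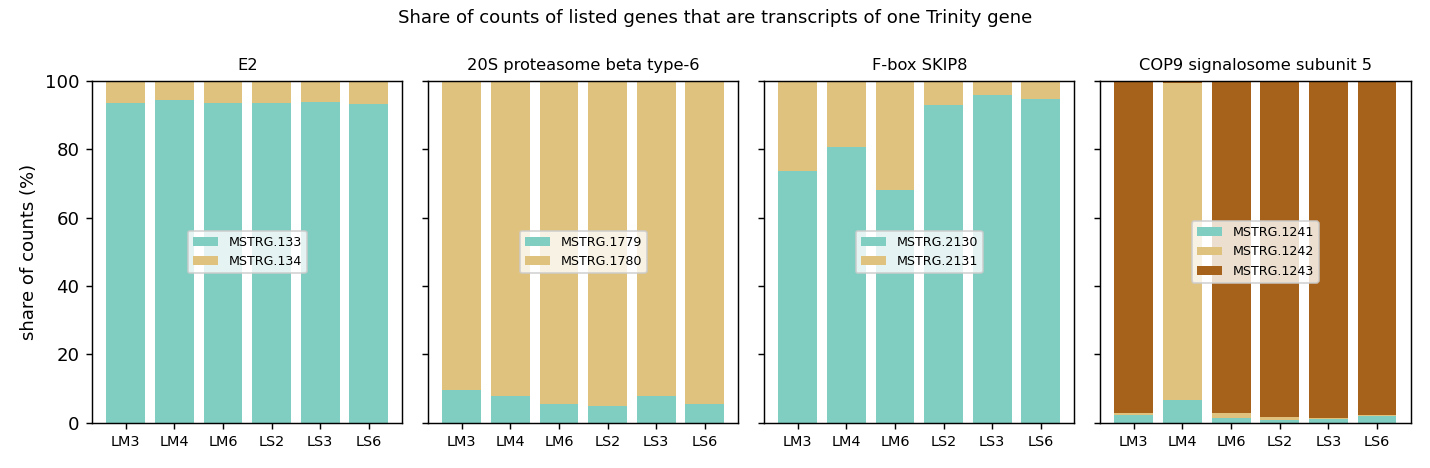
Share of counts in percent taken by each listed gene of 1 Trinity gene, stacked to 100% for every library, for the E2, the proteasome beta type-6, the SKIP8-like F-box and the COP9 signalosome subunit 5 genes. The E2 shares are nearly equal in all libraries, the MSTRG.2130 share is lower in the LM libraries, and LM4 differs from the other 5 libraries in the last panel.

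Other genes of the pathway were 25 listed plant genes that the selecting words had missed, including U-box and ATL E3 ligases, BTB/POZ proteins and the COP9 signalosome. They were chosen with earlier results of these data known, so their shares are not those of a blind choice. Of the 25 genes 17 were tested, and 0 passed the adjusted threshold in edgeR. At an unadjusted p below 0.05 there were 6, 3 higher and 3 lower in LM, against 9.32% and 6.54% of the listed genes. A log2 fold change beyond 1 was found for 8 of the 17 (47.1%), against 3 of the 26 members and 24.2% of the listed genes. MSTRG.1023, a BTB/POZ protein gene of the family that includes substrate receptors of cullin 3 ligases, was at 39.1, 27.9 and 32.6 CPM in LM and 86.7, 60.7 and 56.9 CPM in LS. The groups did not overlap, and the log2 fold change was -1.04 (SE 0.26) with an adjusted p of 0.196 in edgeR and 0.0296 in DESeq2.

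The U-box proteins, E3 ligases with a RING-like fold, differed among themselves. MSTRG.2021 (U-box 33 match) was at 4.92, 5.62 and 10.7 CPM in LM and 12.7, 18.2 and 26.1 CPM in LS, without overlap, and gave -1.42 (SE 0.46, edgeR adjusted p = 0.240, DESeq2 adjusted p = 0.0498). MSTRG.931 (U-box 4 match) was at 19.0, 21.0 and 11.2 CPM in LM and 10.1, 6.52 and 4.44 CPM in LS, also without overlap, and gave 1.27 (SE 0.44, edgeR adjusted p = 0.261). MSTRG.2761 (U-box 28 match) was at 14.1, 43.2 and 7.14 CPM in LM and 4.95, 8.10 and 3.45 CPM in LS, with LM6 inside the LS range, and gave 1.96 (SE 0.75, edgeR adjusted p = 0.294), which became 0.94 (SE 0.57) without LM4. MSTRG.819 (U-box 4 match) was at 37.5, 25.8 and 32.1 CPM in LM and 170, 42.1 and 31.8 CPM in LS, with overlap. It gave -1.35 (SE 0.68, edgeR adjusted p = 0.389), and -1.76 to -0.21 over the alternatives. MSTRG.818 from the same Trinity gene had 2, 3 and 5 counts in LM and 23, 7 and 5 counts in LS and was not tested.

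MSTRG.1669, matching Elongin-C, an adaptor of cullin ligases in animals, was at 119, 120 and 115 CPM in LM and 77.6, 82.1 and 96.6 CPM in LS, a small separation without overlap (log2 fold change 0.47, SE 0.18, edgeR adjusted p = 0.300). Its size depended on scaling, with 0.24 (edgeR unadjusted p = 0.291) for the sum of gene counts as library size and 0.13 (edgeR unadjusted p = 0.662) in the fit of all genes. The ATL family of membrane RING-H2 proteins, several of them induced by elicitors in *Arabidopsis*, had 5 genes in this list. The 4 tested ones were all below 0, with log2 fold changes from -2.11 to -0.98, but LM and LS overlapped for MSTRG.311, MSTRG.875 and MSTRG.1588. MSTRG.382 was at 9.61, 5.37 and 8.25 CPM in LM and 11.7, 20.5 and 13.8 CPM in LS, without overlap (-0.98, SE 0.38, edgeR adjusted p = 0.297). MSTRG.1588 turned from -2.11 to 0.62 without LS6. The untested MSTRG.1793 had 11, 2 and 3 counts in LM and 6, 4 and 4 counts in LS. The untested member MSTRG.1082, with ATL51 as its other match, had 1, 6 and 0 counts in LM and 0, 2 and 1 counts in LS.

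MSTRG.1242 and MSTRG.1243, listed genes of 1 Trinity gene for COP9 signalosome subunit 5, the enzyme that takes NEDD8 off cullins, were singled out after their values were seen. MSTRG.1243 was at 69.9 to 111 CPM in 5 libraries but at 0.256 CPM in LM4, where MSTRG.1242 was at 50.1 CPM against 0.225 to 1.56 CPM elsewhere. Summed over the 3 listed genes of that Trinity gene, the level was 53.9 to 114 CPM in LM and 71.0 to 92.9 CPM in LS, and the log2 fold change was 0.21 (SE 0.33).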

How the data were processed

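Poly(A) RNA of 6 root libraries was sequenced. As the study describes, the authors trimmed reads with bbduk (bases below phred 10), assembled all of them with Trinity, aligned them with HISAT2 2.0.4, merged transcripts with StringTie 1.3.5, counted them with HTSeq and tested with DESeq2 1.26.0 (versions from the submitters' processing notes). The deposited values are raw whole-number counts per gene, not normalized; strandedness of counting is not given in the sources used here. The 5 rows per file that name no gene held 68.3 to 72.8% of counts and were left out. Annotation came from the readable rows of the study's plant gene table, whose columns with the study's own comparison (fold changes and p-values) were not used.

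Library size was the number of reads on plant transcripts tabulated by the study, and CPM are counts per 1000000 of these. LM and LS were compared in R 4.3.3 with edgeR 4.0.16 (filterByExpr with a minimum count of 10 and total of 15, glmQLFit, glmQLFTest) over the listed plant genes, with p-values adjusted by Benjamini and Hochberg's method at 0.05. DESeq2 1.42.0, limma 3.58.1 (voom), other scalings, filters, a replicate block, each library left out and counts summed by Trinity gene were alternatives. Intervals of fold changes rest on the spread between libraries, whereas those of count ratios and shares cover counting error only, since reads carry no molecular identifiers.

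Values in every library are given for members with an unadjusted p below 0.05 or groups without overlap, the LIN-like and GID2-like genes, the E2, deubiquitinating and proteasome genes, and for related genes with an unadjusted p below 0.05. Members and lists were chosen with earlier results of these data known.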

Additional observations from a re-analysis of the deposited data

How the results depend on the processing

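No alternative called a member of the ubiquitin system at an adjusted p below 0.05. Listed genes called numbered 0 in the main edgeR test, 3 where all libraries of LM or of LS had to hold 10 counts, 4 in the fit of all genes and 74 with DESeq2. Members at an unadjusted p below 0.05 numbered 1, and 2 with the sum of gene counts as library size (14.4% of the listed genes), 3 with no filter (13.9%) and 5 with DESeq2 (16.2%). Leaving out each library gave 0 to 2 (0 without LM4 and 2 without LM6, LS3 or LS6, against 10.5%, 16.8%, 19.4% and 12% of the listed genes). Members without overlap numbered 4, and 4 to 9 with a library left out. Pairs of transcripts without overlap numbered 1, and 2 with a minimum of 10 counts, and 1 to 2 with a library left out (2 without LM3, LM4, LM6 or LS3).

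Of the 26 tested members 7 turned sign with scaling and 12 on leaving out a library, all of them from a log2 fold change of at most 0.27 in size. The turned values could be large: without LS2, MSTRG.759 became 1.05, MSTRG.758 0.75 and MSTRG.2402 0.54, and the fitted value of MSTRG.2289 became 8.09 (edgeR unadjusted p = 0.00332, adjusted p = 0.211), which depends on the prior count because LS3 and LS6 hold 0 counts. MSTRG.133 turned to -0.014 (TMM), -0.12 (sum of gene counts), -0.022 (DESeq2 size factors and DESeq2) and -0.27 (all genes), and ranged from -0.072 (without LS3) to 0.35 (without LS2). MSTRG.134 turned to -0.076 (TMM), -0.17 (sum of gene counts), -0.086 (DESeq2 size factors), -0.085 (DESeq2) and -0.33 (all genes), and ranged from -0.16 (without LS3) to 0.31 (without LS2), with -0.0083 and -0.040 without LM3 and LM6. MSTRG.1306 turned to -0.018 (TMM), -0.021 (DESeq2 size factors), -0.022 (DESeq2), -0.16 (sum of gene counts) and -0.26 (all genes), and ranged from -0.12 (without LM3) to 0.17 (without LS3), with -0.034 without LS6. MSTRG.776 turned to -0.055 (all genes). The causes were not tested. With DESeq2 the related genes MSTRG.1023 (-1.15) and MSTRG.2021 (-1.51) passed the adjusted threshold, and no other named gene changed its side.

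The labels give LM and LS the same replicate numbers, 1 for LM3 and LS2, 2 for LM4 and LS3, and 3 for LM6 and LS6. Deviations from the group means within these pairs had correlations across genes of -0.04, 0.17 and 0.14. Libraries of different numbers had correlations of -0.23 to 0.10, so those of numbers 2 and 3 were the highest. Replicate 1 of LM (LM3) instead correlated best with replicate 2 of LS (LS3, 0.08). These values do not settle whether the numbers pair the libraries, and the main test did not use them as pairs. With the replicate number as a block, 2 members instead of 1 had an unadjusted p below 0.05 (MSTRG.633 and MSTRG.1105), against 14.5% of the listed genes. Of the members 0 passed the adjusted threshold.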
